A study of Mus musculus with 46 samples.

Results

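The 10 genes Timp1, Timp2, Timp3, Mmp2, Mmp13, Mmp14, Adamts1, Lox, Loxl1 and Loxl2 encode inhibitors of matrix proteases, matrix proteases and lysyl oxidases. They were taken by symbol from the 55487 gene identifiers in the deposited files and followed across 8 groups of organ, sex and treatment. Metalloproteinases of the MMP and ADAMTS families cut collagens, proteoglycans and other proteins of the extracellular matrix, and the tissue inhibitors of metalloproteinases (TIMPs) bind and block their active sites. Lysyl oxidases act in the opposite direction on the same material, since they oxidise lysines of collagen and elastin so that the fibres become crosslinked. In adipose tissue these enzymes are known to take part in the remodelling that goes with expansion of fat cells, and in liver they are known mainly for fibrosis and its resolution.

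Livers and white adipose tissue (WAT) came from wild-type C57BL/6 mice kept on a high-fat diet, and the comparisons ask how an agent called PTP-r altered their RNA, by organ and by sex. All groups ate the diet from 7 weeks of age for 21 weeks. From week 16 they were injected under the skin for 5 weeks with the vehicle, phosphate-buffered saline, or with PTP-r at 1 mg/kg/day. The labels leave the code name PTP-r unexplained and do not name the fat depot. In each organ there were 6 libraries per group, except for 5 of vehicle-treated males. The labels do not say that every library came from its own mouse, so the p-values measure the spread between libraries, which may be technical. No group without the high-fat diet was analysed here.

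The liver libraries held from 20266425 to 57518893 reads on genes, and those of WAT held from 20991069 to 32219751. The organ labels were checked with marker genes: 8 hepatocyte markers summed to at least 104384 CPM (the read count of a gene scaled by library size) in every liver library and to at most 4380 CPM in WAT, and 8 adipocyte markers summed to at least 16556 CPM in every WAT library and to at most 59.7 CPM in liver. Markers of neighbouring tissues and of B cells stood at over 4 times the organ's median and over 50 CPM in 4 liver libraries, all from females, and in 9 WAT libraries. In liver these were PTP-r libraries 1 (pancreas) and 11 (skeletal muscle) and vehicle libraries 10 (B cells) and 12 (skeletal muscle). In WAT they were female PTP-r libraries 1, 4 and 5, male libraries 1, 2 and 7 of the PTP-r group, and 3, 9 and 10 of the male vehicle group, with muscle, epididymis, B cell or epithelial markers. In bulk tissue, fewer cells of a type and less RNA per cell cannot be told apart.

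The starts of 3 of these genes are shown because Timp1 and Mmp13 rose in liver and Adamts1 fell in WAT. Each sequence is the 250 bases before the transcript start on the gene's own strand, from RefSeq with the build GRCm38.p6. Capitals mark matches to motifs that were searched on both strands. These were the AP-1 site TGANTCA, the TATA box TATAAA, and the GC box GGGCGG, which appears as its reverse complement where it lies on the other strand. The windows are chrX:20869916-20870165 (plus strand) for Timp1, chr9:7272264-7272513 (plus strand) for Mmp13 and chr16:85803114-85803363 (minus strand) for Adamts1.
Timp1: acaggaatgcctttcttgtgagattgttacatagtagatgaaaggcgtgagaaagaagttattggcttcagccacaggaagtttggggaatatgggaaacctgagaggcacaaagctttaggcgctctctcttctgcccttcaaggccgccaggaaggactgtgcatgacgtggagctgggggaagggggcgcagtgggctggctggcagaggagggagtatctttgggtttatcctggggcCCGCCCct
Mmp13: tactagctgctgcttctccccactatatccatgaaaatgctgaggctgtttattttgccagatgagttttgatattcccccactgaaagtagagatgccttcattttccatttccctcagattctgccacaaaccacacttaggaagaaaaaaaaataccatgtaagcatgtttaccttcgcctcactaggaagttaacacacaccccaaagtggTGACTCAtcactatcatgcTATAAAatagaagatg
Adamts1: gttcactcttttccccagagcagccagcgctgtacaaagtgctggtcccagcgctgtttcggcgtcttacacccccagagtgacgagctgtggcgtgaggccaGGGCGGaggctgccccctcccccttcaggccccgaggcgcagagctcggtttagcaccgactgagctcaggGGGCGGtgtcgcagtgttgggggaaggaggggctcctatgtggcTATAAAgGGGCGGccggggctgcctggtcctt
In Mmp13 the AP-1 match begins at base -35 and the TATA box at base -16, counted back from the start. Timp1 held 1 GC box, on the other strand, at base -8. Adamts1 held GC boxes at bases -147, -76 and -25 and a TATA box at base -32. Over the 32851 promoters of the same table, cut to the same length, 6.75% held the AP-1 letters, 12.4% the TATA box and 32.7% the GC box. A match describes the letters only. Promoters of 6 of the 10 members were kept here, and Mmp2, Lox, Loxl1 and Loxl2 are named only.

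The inhibitor Timp2 was the most abundant member in WAT and the membrane protease Mmp14 the most abundant in liver. Levels between genes and organs are given in RPKM (CPM per kilobase of exon, scaled over all 46 libraries), as the mean over the 11 vehicle libraries of both sexes with the SD. In WAT, Timp2 (ENSMUSG00000017466, GRCm38 chromosome 11, 118301069 to 118355740, minus strand), which besides its inhibitory role helps MMP14 to activate proMMP2, stood at 124.7 ± 28.6 RPKM (SD, n = 11). Timp3 (ENSMUSG00000020044, chromosome 10, 86300372 to 86349506, plus strand), the inhibitor that stays bound to the matrix, followed at 39.4 ± 7.41 RPKM. Next came Loxl1 (ENSMUSG00000032334, chromosome 9, 58287738 to 58313186, minus strand), an oxidase needed for elastic fibres, at 35.2 ± 6.29 RPKM. The gelatinase Mmp2 (ENSMUSG00000031740, chromosome 8, 92827291 to 92853420, plus strand) stood at 30.3 ± 12.6 RPKM. This order is that of the mean over both sexes: in vehicle males alone Mmp2, at 36.01 RPKM, stood above Timp3, at 34.5 RPKM.

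Lox (ENSMUSG00000024529, chromosome 18, 52516067 to 52529867, minus strand), the founding lysyl oxidase, stood at 18.3 ± 7.74 RPKM in WAT. Mmp14 (ENSMUSG00000000957, chromosome 14, 54431612 to 54445364, plus strand), a collagenase anchored in the cell membrane, stood at 15.1 ± 4.84 RPKM, and the aggrecan- and versican-cutting protease Adamts1 (ENSMUSG00000022893, chromosome 16, 85793827 to 85803113, minus strand) at 12.2 ± 3.55 RPKM. The lowest in WAT were Loxl2 (ENSMUSG00000034205, chromosome 14, 69609068 to 69695834, plus strand), an oxidase that acts on type IV collagen, at 6.93 ± 1.54 RPKM, Timp1 (ENSMUSG00000001131, chromosome X, 20870166 to 20874735, plus strand), an inhibitor known to be induced in inflammation, at 5.77 ± 4.80 RPKM, and the interstitial collagenase Mmp13 (ENSMUSG00000050578, chromosome 9, 7272514 to 7283331, plus strand) at 0.338 ± 0.309 RPKM. Several members share a stretch of genome with another gene: exons of Timp3 overlap those of Syn3, Lox those of AC161119.1 and Loxl2 those of Gm27177, each on the opposite strand. The counts used are those of 1 strand, and the microRNA gene Mir6950 lies on the same strand within exons of Loxl2.

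All 10 members were lower in liver than in WAT under vehicle, where 84% of the 19135 genes tested differed and 43.8% were lower in liver. Lox had the widest gap, at 0.104 ± 0.0632 RPKM in liver (n = 11), so that its mean in WAT was 176 times as high (log2 difference liver against WAT -7.48, SE 0.217, edgeR adjusted p = 1.87e-30). Mmp14 had the narrowest, at 10.002 ± 2.28 RPKM in liver and 1.51 times as high in WAT (log2 -0.65, SE 0.164, edgeR adjusted p = 0.000452). Timp1 stood at 0.169 ± 0.1001 RPKM and Mmp13 at 0.0869 ± 0.0384 RPKM in liver, near the lower limit of what the libraries resolve. The other 6 members had log2 differences between -4.95 (Loxl1) and -2.04 (Adamts1). In liver the order was led by Mmp14, followed by Timp2 at 5.26 ± 1.87 RPKM, Timp3 at 3.15 ± 0.736 RPKM and Adamts1 at 2.96 ± 0.506 RPKM.

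**Figure D1:**
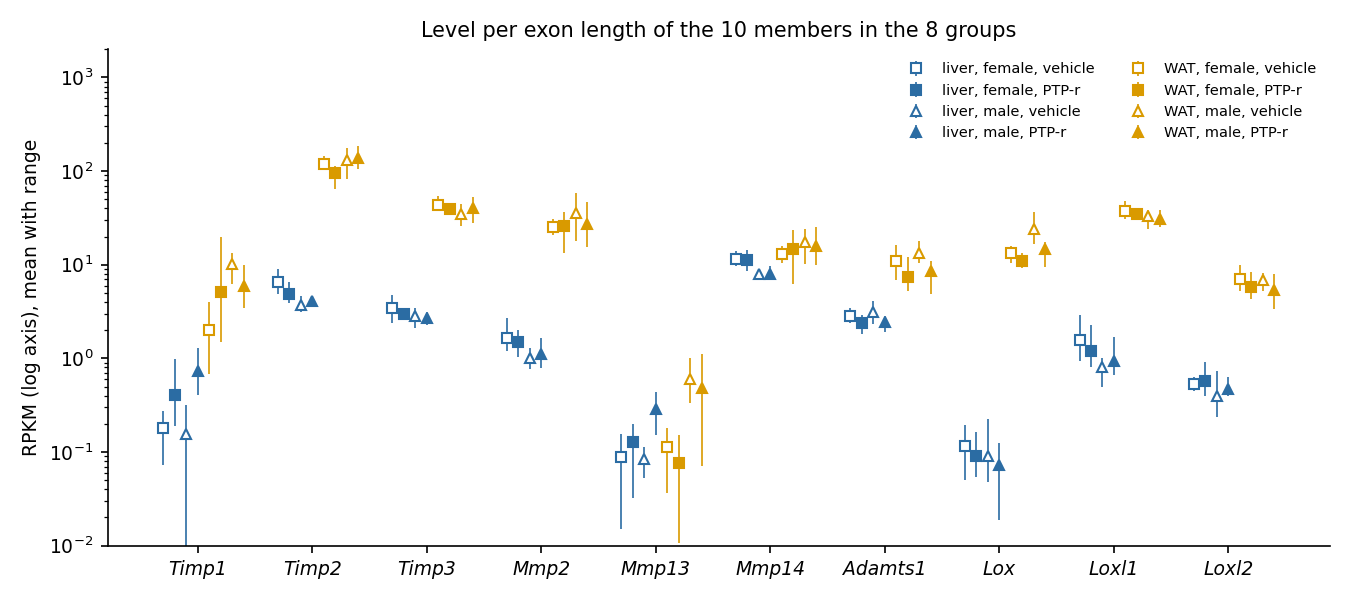
Level of each member in the 8 groups, in RPKM on a log axis; symbols are means over 5 or 6 libraries and lines run from the lowest to the highest library. Lox stands far higher in WAT than in liver, and Mmp14 differs least between the organs. The line of Timp1 in male vehicle liver is cut at the foot of the axis because 1 library had 0 reads.

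Ordered by mean RPKM over the 8 groups, every WAT group stood above every liver group for 9 of the members, and the 2 organs met within the larger SD only for Mmp14. Mmp13 was the exception to the order: WAT of males led at 0.607 ± 0.263 RPKM (vehicle, n = 5) and 0.482 ± 0.404 RPKM (PTP-r, n = 6), liver of PTP-r males came next at 0.287 ± 0.115 RPKM, and WAT of PTP-r females was last at 0.0759 ± 0.0459 RPKM. Only the step from liver of PTP-r males to liver of PTP-r females, at 0.129 ± 0.0686 RPKM, exceeded the larger SD of its neighbours in that order. For Timp1 the steps beyond the larger SD were those from WAT of vehicle males, at 10.3 ± 3.00 RPKM, to WAT of PTP-r males, at 5.93 ± 2.27 RPKM, and from the WAT groups to the liver groups. Neighbouring groups within an organ differed by less than the larger SD for Timp3, Mmp2, Adamts1, Loxl1 and Loxl2.

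In liver, Timp1 and Mmp13 rose with PTP-r in males and no member fell. Timp1 stood at 0.269, 0.386 and 0.839 CPM (lowest, median and highest of 6) in PTP-r males, from 9 to 30 reads per library. In vehicle males it stood at 0.206, 0.162, 0, 0.0492 and 0.0812 CPM in libraries 3, 4, 9, 10 and 12, from 0 to 10 reads; library 9, with 0 reads, allows up to 0.0883 CPM, counting 3 reads as the limit. Every PTP-r male library was above every vehicle male library, and the mean was 4.86 times as high. The fitted log2 fold change was 2.13 (SE 0.511, edgeR adjusted p = 0.00977).

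Mmp13, a collagenase made in liver mainly by macrophages and stellate cells, followed the same order of groups. Its values were 0.303, 0.572 and 0.876 CPM (lowest, median and highest of 6) in PTP-r males, from 9 to 29 reads per library. In vehicle males, libraries 3, 4, 9, 10 and 12 stood at 0.103, 0.135, 0.177, 0.221 and 0.190 CPM, from 5 to 9 reads. The groups did not overlap, and the mean was 3.46 times as high with PTP-r (log2 1.77, SE 0.406, edgeR adjusted p = 0.0072). How many of all genes separated the male groups as Timp1 and Mmp13 did was not counted. The 2 members that rose are 2 of 10 tested, beside 5.23% of the 15892 genes that rose and 7.68% that changed either way in liver of males. These counts are few, and the expression filter bears on them: liver needed 0.274 CPM in 5 libraries, and for Timp1 all 6 libraries at or above that level were PTP-r libraries (4 male and 2 female), while for Mmp13 they were 10 PTP-r and 1 vehicle library. Without the filter the adjusted p was 0.0181 for Timp1 and 0.0159 for Mmp13, and under a filter of 1 CPM in 5 libraries neither was tested. With the number in the labels' description field as a block, whose meaning is not given and which holds both treatments for 1 number only in males, neither passed (Timp1 log2 2.27, adjusted p = 0.0925; Mmp13 log2 1.57, adjusted p = 0.161).

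**Figure D2:**
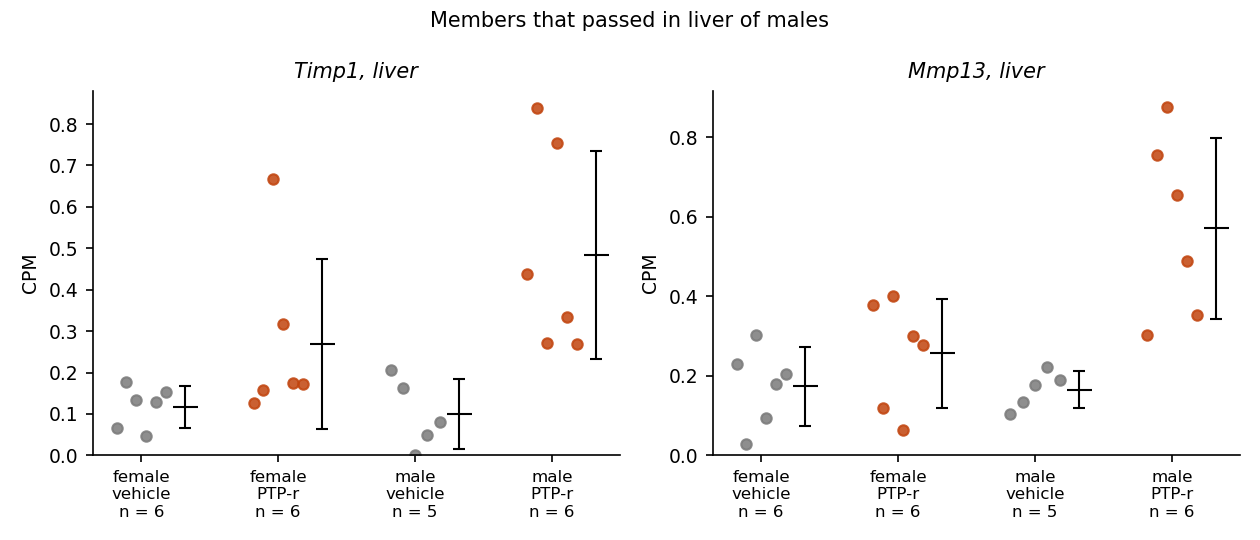
Liver levels of Timp1 (left) and Mmp13 (right) in CPM; each dot is 1 library, and the bar beside it gives the mean and SD of the group. In males all 6 PTP-r libraries lie above all 5 vehicle libraries for both genes, while the groups of females overlap.

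In liver of females no member passed, beside 0.164% of genes changed either way (26 of 15892; 1378 had an unadjusted p under 0.05). Timp1 stood at 0.126, 0.175 and 0.667 CPM (lowest, median and highest of 6) with PTP-r and at 0.0464, 0.132 and 0.176 CPM with vehicle. The groups overlapped, and the highest value was that of library 5 alone (log2 1.11, SE 0.523, edgeR adjusted p = 0.557). Mmp13 stood at 0.0632, 0.289 and 0.400 CPM with PTP-r and at 0.0294, 0.192 and 0.303 CPM with vehicle, again with overlap (log2 0.57, SE 0.426, edgeR adjusted p = 0.774). As the mean of both sexes, where 5.18% of genes rose and 7.58% changed either way, Timp1 (log2 1.62, SE 0.366, edgeR adjusted p = 0.00674) and Mmp13 (log2 1.17, SE 0.295, edgeR adjusted p = 0.0144) passed. Without the 4 liver libraries that carried other tissues' markers, Mmp13 no longer passed in that mean (log2 1.12, edgeR adjusted p = 0.0780). The difference between the sexes' effects, female minus male, was -1.02 (SE 0.755, edgeR adjusted p = 0.753) for Timp1 and -1.19 (SE 0.597, edgeR adjusted p = 0.528) for Mmp13, so a difference between sexes was not shown. No member passed that test, beside 0.107% of genes.

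None of the other inhibitors and proteases passed in liver within a sex. Timp2 in females stood at 11.6, 13.1 and 19.1 CPM (lowest, median and highest of 6) with PTP-r and at 13.4, 17.1 and 25.9 CPM with vehicle. The fitted log2 change was -0.40 (SE 0.136, edgeR adjusted p = 0.307) in females and 0.15 (SE 0.144) in males, and the groups overlapped in each sex. Adamts1 had a negative fitted change in both sexes, -0.23 (SE 0.122, edgeR adjusted p = 0.641) in females and -0.33 (SE 0.126, edgeR adjusted p = 0.122) in males. Its mean over the sexes lay at the edge of the threshold (log2 -0.28, SE 0.0878, edgeR adjusted p = 0.0529). It passed with DESeq2 (adjusted p = 0.0239), and without the libraries that carried other tissues' markers the adjusted p was 0.146. Timp3, Mmp2 and Mmp14 had fitted changes between -0.19 and 0.17 in the 2 sexes, and their groups overlapped.

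The lysyl oxidases did not pass in liver either. Lox, at 0.0668 to 0.785 CPM over the 23 liver libraries, had fitted changes of -0.33 (SE 0.437) in females and -0.35 (SE 0.477) in males, with intervals wide enough to hold changes of either sign. Loxl1 stood at 1.62, 2.07 and 4.28 CPM (lowest, median and highest of 6) in PTP-r males and at 1.97, 2.38, 1.21, 2.02 and 2.08 CPM in vehicle libraries 3, 4, 9, 10 and 12 (log2 0.23, SE 0.312, edgeR adjusted p = 0.747). Loxl2 was above the vehicle mean in 6 of 6 PTP-r males, yet vehicle library 4 was the highest of all male livers (log2 0.28, SE 0.248, edgeR adjusted p = 0.586).

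Other genes of matrix breakdown and their substrates are given by list for liver of males, where 5.23% of all genes rose; no list was tested as a whole. Of 20 other matrix metalloproteinases, 9 were tested and 3 rose in males: Mmp12, the macrophage elastase (log2 3.08, SE 0.445, edgeR adjusted p = 0.000123), Mmp27 (log2 2.00, SE 0.252) and the gelatinase Mmp9 (log2 1.31, SE 0.266). Mmp12 stood at 3.76 ± 1.20 CPM with PTP-r (SD, n = 6) and 0.442 ± 0.296 CPM with vehicle (n = 5) in males, and it was the 1 of these that rose in females (log2 2.41, SE 0.422, edgeR adjusted p = 0.0127). Of 7 genes of plasminogen activation, the urokinase gene Plau (log2 0.77, SE 0.207, edgeR adjusted p = 0.0226) and its receptor Plaur (log2 1.37, SE 0.265, edgeR adjusted p = 0.00177) rose in males. Adamts10 was the 1 of 11 tested ADAMTS genes to rise, Adam8 the 1 of 7 ADAM genes and the cysteine protease gene Ctss the 1 of 4 cathepsins. None of 10 substrate genes passed in males: Col1a1 was at log2 0.86 (SE 0.357, edgeR adjusted p = 0.156) and Col3a1 at 0.60 (SE 0.230, edgeR adjusted p = 0.123), and the list's median was 0.44 beside 0.00289 over all genes. None passed either among 10 tested genes of procollagen maturation, 2 other inhibitors and 2 other lysyl oxidases.

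Some markers of macrophages and neutrophils also rose with PTP-r in liver of males, where 5.23% of all genes rose and 7.68% changed either way. None of the marker lists was tested as a whole. Whether these markers followed Timp1 and Mmp13 from library to library was not tested. Of 10 macrophage markers 6 rose, led by Trem2 (log2 2.34) and Lyz2 (1.28). The list summed to between 174.1 and 434.0 CPM with PTP-r and between 100.8 and 203.0 CPM with vehicle. These sums overlapped, with PTP-r libraries 1 and 6 under vehicle library 3. Of 8 neutrophil markers 4 were tested and all 4 rose, with sums of 4.91 to 7.55 CPM against 1.67 to 3.06 CPM. Ly6g was at 0 reads in every male liver library. The neutrophil markers not tested had failed the expression filter. Through which libraries the tested ones passed it was not counted, so the filter may bear on them as on Timp1 and Mmp13. None of 10 stellate cell and fibroblast markers passed, with sums of 207.3 to 264.9 CPM against 236.7 to 290.2 CPM. Of 8 endothelial markers 3 fell (Kdr, Tek and Pecam1), with sums of 82.7 to 104.7 CPM against 109.6 to 134.5 CPM. In liver of females, where no member passed, neutrophil sums ran from 5.71 to 9.74 CPM with PTP-r and from 3.70 to 5.40 CPM with vehicle. Endothelial sums there ran from 99.6 to 143.3 CPM against 143.6 to 200.1 CPM. Macrophage sums there overlapped, at 298.0 to 468.7 CPM against 240.3 to 453.1 CPM. The part of the shifts in males in the rise of Timp1 and Mmp13 was not tested.

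In WAT, Lox and Adamts1 fell with PTP-r as the mean of both sexes and no member rose. Lox, in males, stood at 63.0, 104.6 and 113.1 CPM (lowest, median and highest of 6) with PTP-r and at 185.5, 232.4, 107.2, 123.3 and 125.8 CPM in vehicle libraries 3, 4, 9, 10 and 12. In females it stood at 59.8, 69.1 and 86.5 CPM with PTP-r and at 68.0, 88.3 and 101.9 CPM with vehicle. All 12 PTP-r libraries were under the vehicle mean of their sex, although the groups overlapped in each sex. Vehicle males 3 and 4 were higher than the rest, and vehicle males 9, 10 and 12 also lay under the vehicle mean of 154.8 CPM. How many of all genes had their PTP-r libraries on 1 side of the vehicle mean was not counted, for this or any other member. The mean change of Lox was -0.49 (SE 0.127, edgeR adjusted p = 0.0286). Within 1 sex Lox did not pass, at -0.69 (SE 0.184, edgeR adjusted p = 0.0627) in males, where 0.873% of 17765 genes passed, and -0.29 (SE 0.176, edgeR adjusted p = 0.419) in females, where 0% did (2909 had an unadjusted p under 0.05, and DESeq2 called 594).

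Adamts1, known in fat as a secreted protease that restrains the formation of new fat cells in mice, moved likewise. In males it stood at 35.97, 61.8 and 78.5 CPM (lowest, median and highest of 6) with PTP-r and at 82.7, 74.8, 114.9, 82.4 and 125.7 CPM in vehicle libraries 3, 4, 9, 10 and 12. In females it stood at 37.4, 49.2 and 86.4 CPM with PTP-r and at 49.7, 75.9 and 118.5 CPM with vehicle. The groups overlapped in each sex, and 11 of 12 PTP-r libraries lay under the vehicle mean of their sex, the exception being female library 8. Vehicle males 3, 4 and 10 also lay under the vehicle mean of males, 96.1 CPM. The mean change was -0.61 (SE 0.163, edgeR adjusted p = 0.0304), and within a sex it was -0.65 (SE 0.234, edgeR adjusted p = 0.128) in males and -0.58 (SE 0.225, edgeR adjusted p = 0.210) in females. These 2 of 10 members stand beside 3.43% of genes that fell and 7.08% that changed either way in the mean. Both calls were lost with no expression filter (adjusted p = 0.0575 for Lox and 0.0611 for Adamts1), and without the libraries that carried other tissues' markers (log2 -0.52 and adjusted p = 0.0970 for Lox, log2 -0.46 and adjusted p = 0.267 for Adamts1). They were lost as well with the description number as a block (log2 -0.48 and adjusted p = 0.0887 for Lox, log2 -0.66 and adjusted p = 0.101 for Adamts1). Leaving out 1 library ended the call on Lox in 3 of 23 fits (female PTP-r library 4 and male vehicle libraries 3 and 4) and that on Adamts1 in 5 of 23 (female PTP-r library 4, female vehicle libraries 10 and 12, male vehicle libraries 9 and 12), with adjusted p of at most 0.0642 and 0.0594.

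**Figure D3:**
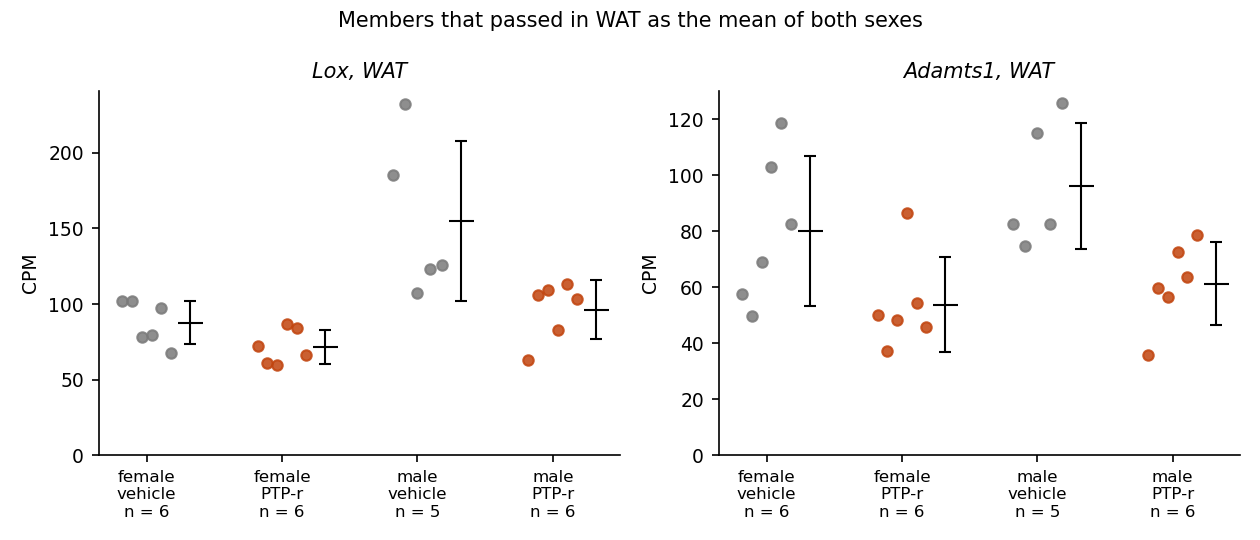
WAT levels of Lox (left) and Adamts1 (right) in CPM; each dot is 1 library, and the bar beside it gives the mean and SD of the group. The PTP-r groups have lower means than the vehicle groups in both sexes with overlapping libraries, and vehicle males 3 and 4 reach 185.5 and 232.4 CPM of Lox.

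Timp1 and Mmp13, the members that rose in liver of males, did not pass in WAT. In males Timp1 stood at 4.18, 6.30 and 12.0 CPM (lowest, median and highest of 6) with PTP-r and at 15.8, 12.5, 9.99, 7.55 and 15.5 CPM in vehicle libraries 3, 4, 9, 10 and 12. All 6 PTP-r males were under the vehicle mean, with overlap (log2 -0.78, SE 0.558, edgeR adjusted p = 0.445). In females 5 of 6 PTP-r libraries stood between 1.81 and 3.64 CPM and library 9 at 23.7 CPM, from 603 reads, while vehicle females stood at 0.822, 2.26 and 4.85 CPM (lowest, median and highest of 6). The fitted change of 1.34 (SE 0.553, edgeR adjusted p = 0.235) became 0.13 without library 9 (adjusted p = 0.925). In library 9, markers of activated myofibroblasts summed to 3176 CPM, against 641.6 to 4269 CPM over the 6 libraries of its group. In vehicle females they summed to between 747.1 and 1780 CPM. The highest sum, 4269 CPM, was that of PTP-r library 4, whose Timp1 was among those between 1.81 and 3.64 CPM. What part these markers have in the Timp1 level of library 9 was not tested.

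Mmp13 in WAT stood higher in males than in females. It stood at 0.262, 1.14 and 4.05 CPM (lowest, median and highest of 6) in PTP-r males and at 3.67, 2.01, 1.63, 1.20 and 2.38 CPM in vehicle libraries 3, 4, 9, 10 and 12. PTP-r males thus spread wider than vehicle males on both sides, with libraries 2 and 7 high and library 1 low (log2 -0.31, SE 0.527, edgeR adjusted p = 0.769). In females it ran from 0.0393 to 0.550 CPM with PTP-r and from 0.133 to 0.651 CPM with vehicle, from 1 to 17 reads per library (log2 -0.57, SE 0.557, edgeR adjusted p = 0.652).

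**Figure D4:**
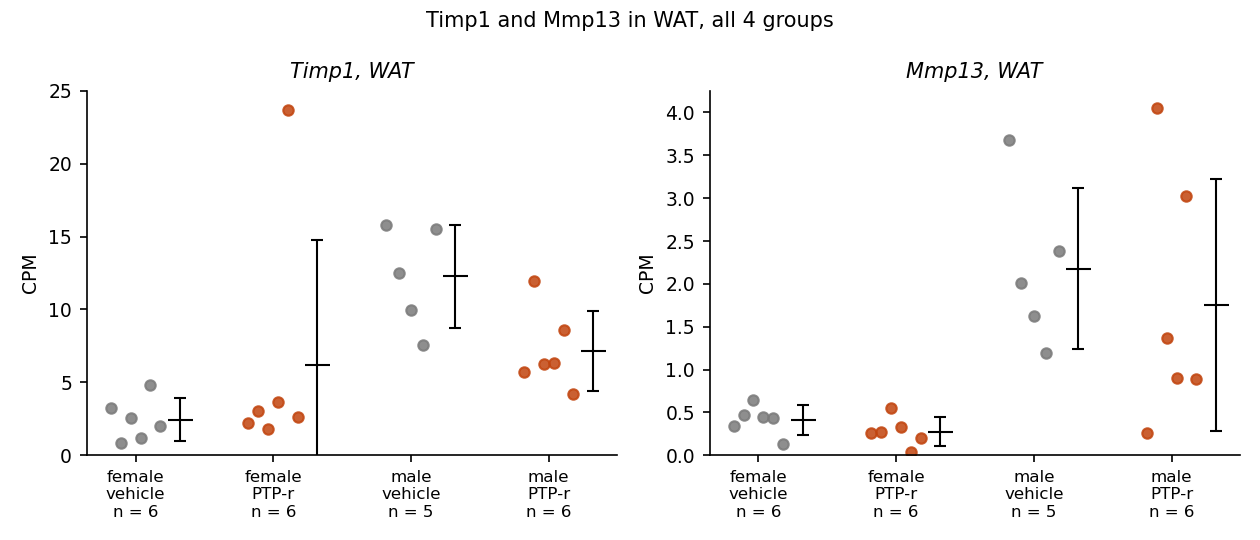
WAT levels of Timp1 (left) and Mmp13 (right) in CPM; each dot is 1 library, and the bar beside it gives the mean and SD of the group. Male vehicle libraries stand above female vehicle libraries for both genes, and female PTP-r library 9 reaches 23.7 CPM of Timp1.

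None of the remaining members passed in WAT. Timp2 ran from 336.7 to 604.2 CPM in PTP-r females and from 542.4 to 776.5 CPM in vehicle females, with all 6 PTP-r libraries under the vehicle mean (log2 -0.31, SE 0.183, edgeR adjusted p = 0.404). Timp3 was at 432.6 ± 40.6 CPM (SD, n = 6) in PTP-r and 483.2 ± 63.8 CPM (n = 6) in vehicle females, and at 446.1 ± 90.5 CPM (n = 6) and 377.6 ± 73.0 CPM (n = 5) in males. Its fitted changes thus had opposite signs in the sexes, and neither passed. Mmp14 and Mmp2, the membrane protease and the gelatinase it activates, were both high in PTP-r male library 2, at 202.3 and 211.8 CPM, and in vehicle male library 4, at 193.7 and 267.3 CPM. Their fitted changes lay between -0.40 and 0.15, with SE of at least 0.281. Loxl1 was at -0.09 in each sex (SE 0.132 in females and 0.138 in males). Loxl2 was at -0.25 (SE 0.220) in females and -0.33 (SE 0.230) in males.

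Other matrix genes of WAT are given by list for the mean of both sexes, where 3.43% of all genes fell; no list was tested as a whole. Without the 9 libraries that carried other tissues' markers, 70 genes in all were called there in place of 1258. Of 10 substrate genes the basement membrane collagens Col4a1 (log2 -0.50, SE 0.0976, edgeR adjusted p = 0.00805) and Col4a2 (log2 -0.59, SE 0.103, edgeR adjusted p = 0.00588) fell as the mean of both sexes. In males Col4a1 stood at 1868 ± 388 CPM with PTP-r (SD, n = 6) and 2855 ± 260 CPM with vehicle (n = 5). The fibrillar collagens that lysyl oxidase crosslinks did not pass, with Col1a1 at log2 -0.36 (SE 0.193, edgeR adjusted p = 0.231) and Col3a1 at -0.39 (SE 0.166, edgeR adjusted p = 0.137), nor did elastin (Eln, -0.30, SE 0.145). Of 11 genes of procollagen maturation the collagen chaperone gene Serpinh1 (log2 -0.46, SE 0.0858) and the procollagen peptidase enhancer gene Pcolce2 (log2 -1.01, SE 0.200) fell. Of 17 tested other ADAMTS genes Adamts9 (log2 -0.30, SE 0.0679) and Adamts5 (log2 -0.55, SE 0.129) fell, of 12 other matrix metalloproteinases Mmp15 fell (log2 -0.31, SE 0.0911), and of 4 cathepsins Ctsl fell (log2 -0.51, SE 0.115). None of 7 ADAM, 7 plasminogen activation, 3 other inhibitor and 2 other lysyl oxidase genes passed.

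Cell type markers in WAT moved in few places. Of 10 stellate cell and fibroblast markers the pericyte gene Rgs5 fell in the mean of both sexes, and the list summed to between 1682 and 2611 CPM in PTP-r males, 1681 and 2535 CPM in vehicle males, 1756 and 3666 CPM in PTP-r females and 2062 and 2777 CPM in vehicle females. None of 6 mesothelial markers passed, yet they summed to between 99.1 and 383.4 CPM in PTP-r males and between 48.1 and 118.7 CPM in vehicle males. Of 6 markers of activated myofibroblasts the collagen gene Col5a2 fell, with sums of 482.1 to 885.0 CPM in PTP-r males against 804.8 to 953.6 CPM in vehicle males. Of 8 adipocyte markers Cfd rose and Lep fell, and of 3 tested neutrophil markers S100a8 fell. None of 9 tested macrophage markers passed, with sums of 1025 to 3966 CPM in PTP-r males and 1458 to 3716 CPM in vehicle males. Their part in the fall of Lox and Adamts1 was not tested.

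Under vehicle, the share of members that differed between the sexes was near that of all genes in both organs. In liver, 4 of 10 members were higher in females, beside 19.3% of genes higher in females and 36.7% that differed either way. Timp2 had a mean of 18.5 ± 4.62 CPM (SD) over the 6 females and 10.6 ± 1.62 CPM over the 5 males (log2 0.80, SE 0.144, edgeR adjusted p = 0.000166), with all females above all males. Mmp14 stood at 50.7 ± 7.74 CPM and 34.8 ± 2.77 CPM (log2 0.54, SE 0.124, edgeR adjusted p = 0.00162), again without overlap. Mmp2 (log2 0.73, SE 0.229, edgeR adjusted p = 0.0151) and Loxl1 (log2 0.97, SE 0.307, edgeR adjusted p = 0.0157) passed too, with female library 12 the highest in both, at 6.74 CPM of Mmp2 and 7.02 CPM of Loxl1. Without that library, which also carried skeletal muscle markers, the calls were lost at log2 0.53 (adjusted p = 0.0527) for Mmp2 and 0.70 (adjusted p = 0.0576) for Loxl1.

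In WAT under vehicle, 3 of 10 members were lower in females, beside 13.3% of genes lower in females and 26.9% that differed either way. Timp1 had a mean of 2.43 ± 1.48 CPM (SD) over the 6 females and 12.3 ± 3.55 CPM over the 5 males (log2 -2.33, SE 0.580, edgeR adjusted p = 0.00539). Mmp13 stood at 0.413 ± 0.170 CPM and 2.18 ± 0.943 CPM (log2 -2.38, SE 0.556, edgeR adjusted p = 0.00338). For Lox the values were 87.7 ± 14.4 CPM and 154.8 ± 52.6 CPM (log2 -0.82, SE 0.184, edgeR adjusted p = 0.00254). All vehicle females were under all vehicle males for each of these 3. How many of all genes separated the sexes in this way, here or in vehicle liver, was not counted. Without the libraries that carried other tissues' markers, Mmp2 was lower in females too (log2 -0.91, edgeR adjusted p = 0.0380) and Timp3 higher (log2 0.39, edgeR adjusted p = 0.0399). Macrophage markers in WAT summed to between 1458 and 3716 CPM in vehicle males and between 659.1 and 1518 CPM in vehicle females, with overlap. Their part in the differences between the sexes was not tested.

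Set side by side, the PTP-r changes of the members differed in size between organs and sexes, but no difference passed in the fit reported. The difference of effects between sexes in WAT was widest for Timp1 (female minus male 2.12, SE 0.785, edgeR adjusted p = 0.475), and it became 0.90 without female library 9. No member passed there, beside 0% of genes (1520 had an unadjusted p under 0.05, and DESeq2 called 79). Between the organs, liver minus WAT, Mmp13 was at 1.59 (SE 0.505, edgeR adjusted p = 0.0536) and Timp1 at 1.33 (SE 0.585, edgeR adjusted p = 0.175), beside 5.39% of genes that passed. Mmp13 passed with DESeq2 (adjusted p = 0.0253) and in edgeR with the title number as a replicate block (log2 1.73, adjusted p = 0.0487). Timp1 passed without WAT female PTP-r library 9 (log2 1.94, adjusted p = 0.0084). Among genes of the other lists, Plau (log2 0.95, SE 0.255, edgeR adjusted p = 0.0215), Plaur (log2 1.15, SE 0.248, edgeR adjusted p = 0.00497), Mmp12 and Mmp27 had a higher effect in liver, as did Col4a1 and Col4a2.

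**Figure D5:**
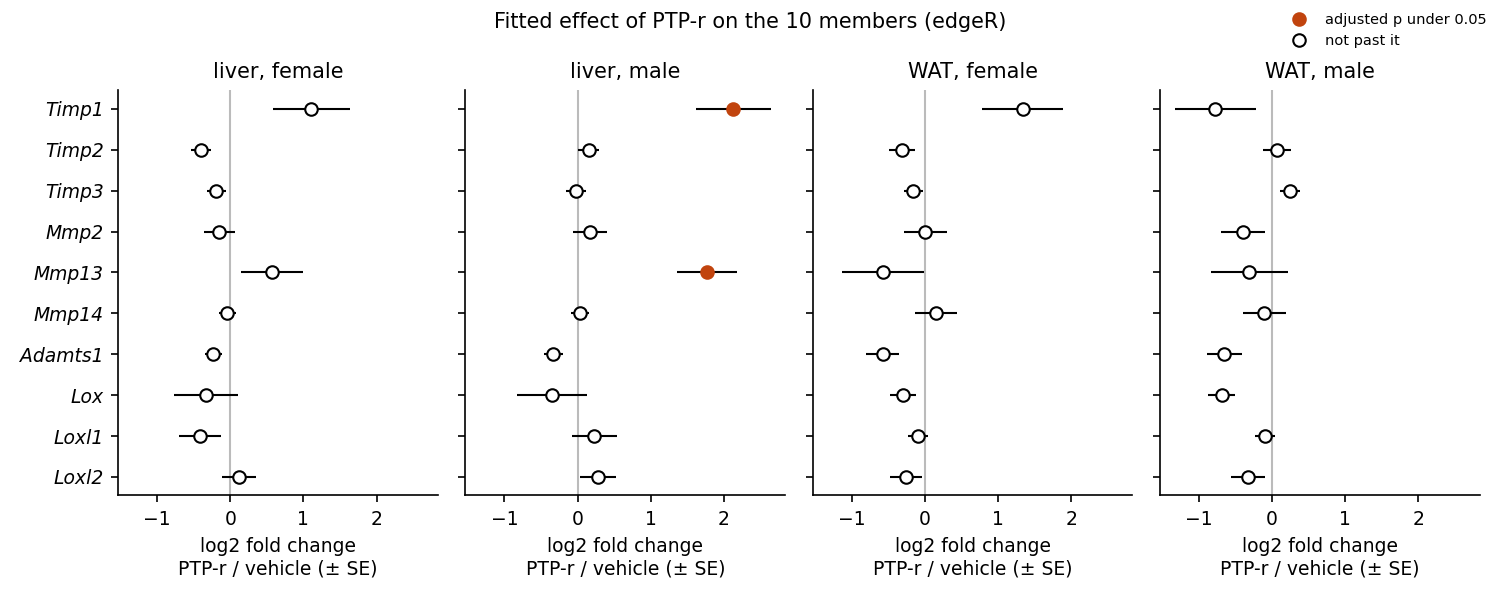
Fitted log2 fold change of PTP-r against vehicle for each member in the 4 combinations of organ and sex; points are edgeR estimates and lines give 1 SE on each side. Timp1 and Mmp13 in liver of males, at 2.13 and 1.77, are the filled points, which passed within a sex, and all open points, which did not pass, lie nearer to 0.

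The genes whose 4 fitted changes were most like those of Timp1 and Mmp13 were sought among 8717 genes with a mean of at least 5 CPM in both organs. The measure was the root mean square difference over liver female, liver male, WAT female and WAT male on the log2 scale. Closest to Mmp13 were Clec7a, the pattern receptor Dectin-1 (difference 0.111), Lilr4b, a leukocyte receptor gene (0.191), and the pleckstrin gene Plek (0.208). For Timp1 the nearest genes were much less alike: the interferon-induced chemokine gene Cxcl9 (0.744), the interferon-induced gene Ifi27l2a (0.900) and the adhesion molecule gene Vcam1 (0.904). Clec7a had changes of 0.58, 1.96, -0.66 and -0.23 in that order, where Mmp13 had 0.57, 1.77, -0.57 and -0.31. The SE of these changes of Mmp13 were 0.426, 0.406, 0.557 and 0.527, each larger than the differences of its nearest genes. How close a gene would come by chance among the candidates was not tested. Cxcl9 had 1.06, 2.04, -0.08 and -0.34, where Timp1 had 1.11, 2.13, 1.34 and -0.78, so that they parted mainly in WAT of females. That value of Timp1 rested on PTP-r female library 9, without which it was 0.13.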

How the data were processed

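PolyA RNA from liver and WAT was measured in 46 libraries. Per the file layout, which is that of STAR's gene counts, the authors deposited whole-number counts for each gene. STAR 2.4.0i, HTSeq and mm10 are named in the submitters' processing notes; mm10 and GRCm38 are names of 1 build. The sources used here do not give the annotation release, library kit or filters. Column 4, 1 of the 2 stranded counts the authors deposited, held 96.0% to 96.5% of both in every library and was used. Reads on no gene, 21.0% to 28.9% of a liver library and 18.4% to 28.7% of a WAT library, were left out. Multimapping reads are among these. Of 55487 gene identifiers, 55227 matched GENCODE M21, which gave symbols, GRCm38 coordinates and exon lengths.

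The labels' organ, sex and treatment set the groups, and title numbers name the libraries. A model per organ held its 4 groups, and contrasts of organs used all 46 libraries. The tool was edgeR 4.0.16 under R 4.3.3, with TMM scaling and its quasi-likelihood F test, which is 2-sided, after its default filter on low counts (minimum count 10, minimum total 15). Benjamini-Hochberg adjustment covered all genes tested, and an adjusted p under 0.05 passed. The SE given with a log2 change was worked back from the test, as the size of the change divided by the square root of F. CPM used the scaled library sizes of 1 organ, and RPKM (CPM per kilobase of exon) those of all 46 libraries. None of 110 pairs of libraries from the same group agreed within sampling noise (chi-square divided by its degrees of freedom at least 12.5, using genes whose 2 counts summed to 20 or more).

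The members, lists and alternatives were chosen with earlier results of these data known. All 10 members are named in every comparison. Of the other lists, up to 6 genes per list and comparison that passed may be named, smallest p first. For each member that passed within 1 sex, the 3 genes with the smallest root mean square difference over 4 fold changes are named. Alternatives were DESeq2 1.42.0, its size factors in edgeR, other expression filters, unstranded counts, title or description numbers as terms, only the groups compared, and leaving out libraries.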

Additional observations from a re-analysis of the deposited data

Results flagged for a closer look

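Of 80 groups of a member, 11 held a library far from the others of its group by Dixon's test, where chance flags about 1 in 20 groups (4 expected). Timp1 stood at 0.667 CPM in liver PTP-r female 5, from 15 reads, and at 23.7 CPM in WAT PTP-r female 9, where the next library was at 3.64 CPM. Timp3 in WAT stood at 607.6 CPM in vehicle female 12 and at 511.6 CPM in PTP-r female 5. Adamts1 stood at 86.4 CPM in WAT PTP-r female 8. In liver, vehicle female 12 was high in both Mmp2 (6.74 CPM) and Loxl1 (7.02 CPM), and PTP-r female 1 was high in Loxl1 (5.55 CPM); these libraries also carried muscle and pancreas markers, and the part of those tissues was not tested. PTP-r male 6 was high in liver for both Mmp14 (43.6 CPM) and Loxl1 (4.28 CPM). Lox stood at 0.785 CPM in liver vehicle male 4, from 29 reads.

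In males, the PTP-r libraries lay on opposite sides of the vehicle mean of Timp1 in the 2 organs, although Timp1 did not pass in WAT. All 6 PTP-r males lay above the vehicle mean in liver, where the ratio of means was 4.86, and all 6 lay below it in WAT, where the ratio was 0.584. Timp1 was flagged because it met this pattern, so the counts of 6 follow from the choice. How many of all genes meet it was not counted. In liver the vehicle males held 0 to 10 reads of Timp1 per library. The difference of Timp1 between the organs within males was not tested.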

How the results depend on the processing

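Among 572 alternative values of called members none changed sign, and 549 stayed past the threshold. The 572 include the comparisons of organs and of sexes under vehicle, and between organs all 10 members stayed called in every fit. A fit that did not test a member adds no value for it. In liver of males the 2 called members became 0 with a filter of 1 CPM, where neither was tested. They became 1, Mmp13, when only the groups compared were fitted, where Timp1 did not pass the expression filter and was not tested. For the mean of the sexes in liver they became 0 with that filter and 1 without the libraries carrying other tissues' markers. Without those libraries, the sexes under vehicle differed in 2 members in liver in place of 4 and in 5 in WAT in place of 3, and the mean in WAT had 0 in place of 2, as it had with no expression filter. DESeq2 called 1 member in WAT of males (Lox, adjusted p = 0.0107). For the difference between organs 1 member, Mmp13, passed with DESeq2 and with the 1 CPM filter. With 1 library left out, the members called ranged from 2 to 3 in liver of males and in the liver mean, from 2 to 5 for the sexes in vehicle liver, from 0 to 2 in the WAT mean, from 3 to 4 for the sexes in vehicle WAT and from 0 to 1 for the difference between organs. The cause was not tested.

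Title numbers recur in both organs. Within a sex the same numbers occur in liver and WAT, each with the same treatment, as they would if a number were 1 mouse. Over 23 pairs the correlation of deviations ran from -0.0715 to 0.134, which does not settle whether a number is 1 mouse. The numbers were not taken to pair the libraries in the fit reported. With the title number as a replicate block, 1 member passed for the difference between organs (Mmp13, log2 1.73, adjusted p = 0.0487). With the description number as a block, 0 members passed in liver of males (Timp1 at log2 2.27 and adjusted p = 0.0925, Mmp13 at log2 1.57 and adjusted p = 0.161), in the liver mean and in the WAT mean.

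Genes called varied more than 1.5-fold over the alternatives: from 5 to 141 in liver of females (26 in the fit reported), 571 to 1590 in liver of males (1221), 416 to 1620 in the liver mean (1205), 1 to 215 for the difference between sexes in liver (17), 0 to 594 in WAT of females (0), 0 to 1135 in WAT of males (155), 70 to 2316 in the WAT mean (1258), 0 to 79 for the difference between sexes in WAT (0) and 591 to 1455 for the difference between organs (1032). Depth limits Timp1, Mmp13 and Lox in liver, at 0 to 30 reads per library.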
